A study of Mus musculus with 126 samples.

Results

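Basement membranes are thin sheets of extracellular matrix on which epithelia rest and which also wrap blood vessels. Laminin, a trimer of an alpha, a beta and a gamma chain, forms the first network on the cell surface, and type IV collagen forms the second. Nidogens link laminin to collagen IV, while the heparan sulfate proteoglycans perlecan and collagen XVIII bind both and hold growth factors. The 10 genes described here are Col4a1 and Col4a2 (the alpha chains of the most widespread collagen IV), Lama5, Lamb1, Lamb2 and Lamc1 (laminin chains), Nid1 and Nid2 (nidogens), Hspg2 (the core protein of perlecan) and Col18a1 (collagen XVIII). They were picked by gene symbol, and each symbol matched 1 of the 48490 gene identifiers in the deposited table.

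The table covered 126 single cells of the mouse endolymphatic sac, the inner ear compartment that takes part in regulating endolymph, at age E14.5, counted in days of embryonic development. The labels assigned 33 cells to wild-type embryos and 93 to embryos with 1 Sox9 Y440X allele and 1 intact allele (Sox9 Y440X/+), called mutant below. No animal, litter, strain or sex was named, so each genotype was 1 sample and differences between genotypes carried no test. Each cell was copied to cDNA by Smart-seq2, a full-length protocol without molecular identifiers. Values were FPKM, fragment numbers divided by transcript length and by the mapped fragments of the cell, and a gene was counted as detected in a cell at 1 FPKM or more.

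Cells were sorted into classes by genes outside the 10. A collagen cell had at least 2 of Col1a1, Col1a2, Col3a1 and Mmp2, genes typical of connective tissue, at 10 FPKM or more. Of the other cells, those in which Aldh1a1 or Aldh1a3, both retinaldehyde dehydrogenases, reached 10 FPKM and was at least 2-fold above the other were called Aldh1a1-dominant or Aldh1a3-dominant. This gave 14 wild-type and 38 mutant Aldh1a1-dominant cells, 14 and 36 Aldh1a3-dominant cells, 2 and 11 collagen cells, and 3 and 8 cells of neither class. All 102 dominant cells had at least 3 of 6 epithelial markers, whereas the epithelial sum was 0 FPKM at the median of the 13 collagen cells.

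The genotype comparison had several limits that touch every value below. Titles began with P9 in all 93 mutant cells and in 1 wild-type cell, and with P10 in the other 32 wild-type cells, so prefix and genotype cannot be told apart. The median number of genes above 0 FPKM, called listed genes here, was 5329 (2189 to 6493) in wild-type cells and 4423 (2035 to 9358) in mutant cells. Y-linked transcripts were present in 32 of 33 wild-type cells and in 4 of 93 mutant-labelled cells. Sex as read from these transcripts thus nearly followed genotype, so genotype differences cannot be told apart from differences between the sexes. These 4 mutant-labelled cells and the wild-type P9 cell were treated as having doubtful labels. Sox9 reached 1 FPKM in 84 of 93 mutant and 30 of 33 wild-type cells, but the level of a transcript does not show a point mutation and so did not check the labels. Intervals below are exact 95% binomial (Clopper-Pearson) intervals over cells, which cover counting error and not variation between embryos.

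The promoters of 4 members are shown because these genes mark the contrast reported below, Lama5 and Lamb2 being more frequent in epithelial cells and Lamb1 and Nid1 in collagen cells. The RefSeq table (GRCm38.p6, the build called mm10) held promoters of 8 of the 10 members, all but Lamc1 and Nid2. The sequences run 5′ to 3′ on the strand of the gene, from 250 bases before the start of the RefSeq transcript up to the first annotated exon. Capitals mark the CCAAT box (CCAAT, or ATTGG on the other strand) and the GC box (GGGCGG, or CCGCCC). The Lama5 stretch is chr2:180225860-180226109 on the minus strand. The plus-strand stretches are chr9:108479612-108479735 for Lamb2, chr12:31265043-31265233 for Lamb1 and chr13:13437352-13437550 for Nid1.
Lama5: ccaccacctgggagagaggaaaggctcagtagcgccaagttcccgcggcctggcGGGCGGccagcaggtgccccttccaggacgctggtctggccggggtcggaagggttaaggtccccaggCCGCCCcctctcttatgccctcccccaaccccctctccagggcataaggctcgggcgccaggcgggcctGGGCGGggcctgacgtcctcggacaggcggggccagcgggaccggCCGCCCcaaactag
Lamb2: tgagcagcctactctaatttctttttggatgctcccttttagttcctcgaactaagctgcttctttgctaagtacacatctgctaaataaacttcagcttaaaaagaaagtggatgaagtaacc
Lamb1: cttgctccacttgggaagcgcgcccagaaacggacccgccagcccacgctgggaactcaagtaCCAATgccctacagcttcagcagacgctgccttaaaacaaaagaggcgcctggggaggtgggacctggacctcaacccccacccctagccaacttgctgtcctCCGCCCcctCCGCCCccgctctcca
Nid1: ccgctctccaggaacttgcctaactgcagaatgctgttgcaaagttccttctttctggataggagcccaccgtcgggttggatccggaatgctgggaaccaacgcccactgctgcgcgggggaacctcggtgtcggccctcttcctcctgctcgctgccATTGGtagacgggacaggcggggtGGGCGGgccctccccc
The Lama5 stretch of 250 bases held 4 GC boxes and no CCAAT box at a GC content of 72.4%. The Lamb2 stretch of 124 bases held neither motif at a GC content of 37.9%. Lamb1 had 1 CCAAT box and 2 GC boxes in 191 bases, and Nid1 had 1 of each in 199 bases. Over all 32851 promoters, 33.8% held a CCAAT and 32.7% a GGGCGG in the 250 bases before the start, so neither motif is particular to these genes. Col4a1 and Col4a2 lie head to head on chromosome 8 (mm10), Col4a1 at 11198423 to 11312826 on the minus strand and Col4a2 at 11312805 to 11449287 on the plus strand. Their first exons overlap by 22 bases. Reads there could fall to either gene, since the strand setting of the counting is not given in the sources used here. On the same build Lama5 spans 180176373 to 180225859 of chromosome 2, Lamb1 31265234 to 31329644 of chromosome 12 and Lamb2 108479736 to 108490530 of chromosome 9. Lamc1 spans 153218922 to 153332786 of chromosome 1, Nid1 13437602 to 13512275 of chromosome 13 and Nid2 19751257 to 19811787 of chromosome 14. Hspg2 spans 137468769 to 137570630 of chromosome 4 and Col18a1 77052178 to 77166548 of chromosome 10. The GENCODE annotation gives the same coordinates for 8 of the 10 members. It places Nid1 at 13437551 to 13512269 and Nid2 at 19751265 to 19811787, and the Nid1 stretch above ends before that start of Nid1. Exons of Col4a2, Nid1 and Nid2 also overlap other annotated genes (Gm15419, Gm48682 and Rtraf, in that order), which makes their values uncertain to that extent.

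Lama5, the alpha chain of the laminins found under many epithelia, was the member detected most often, in 91 of 126 cells (72.2%, interval 63.5 to 79.8%). Its FPKM ran from 0 over a median of 14.4 to 218.4. Lamb2 followed in 73 cells, Col18a1 in 70, Lamc1 in 67 and Hspg2 in 65. The intervals of these 4 genes overlapped, and that of Lama5 also overlapped that of Lamb2 (48.8 to 66.7%), so the order of neighbours is not resolved. Col4a2 was detected in 38 cells, Lamb1 in 34 and Col4a1 in 33, again with overlapping intervals and with medians of 0 FPKM. The interval of Hspg2, 42.5 to 60.6%, did not overlap that of Col4a2, 22.3 to 39%. Nid1 was detected in 19 cells and Nid2 in 5. No member at all was detected in 3 cells, and at least 5 members in 42 cells.

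**Figure D1:**
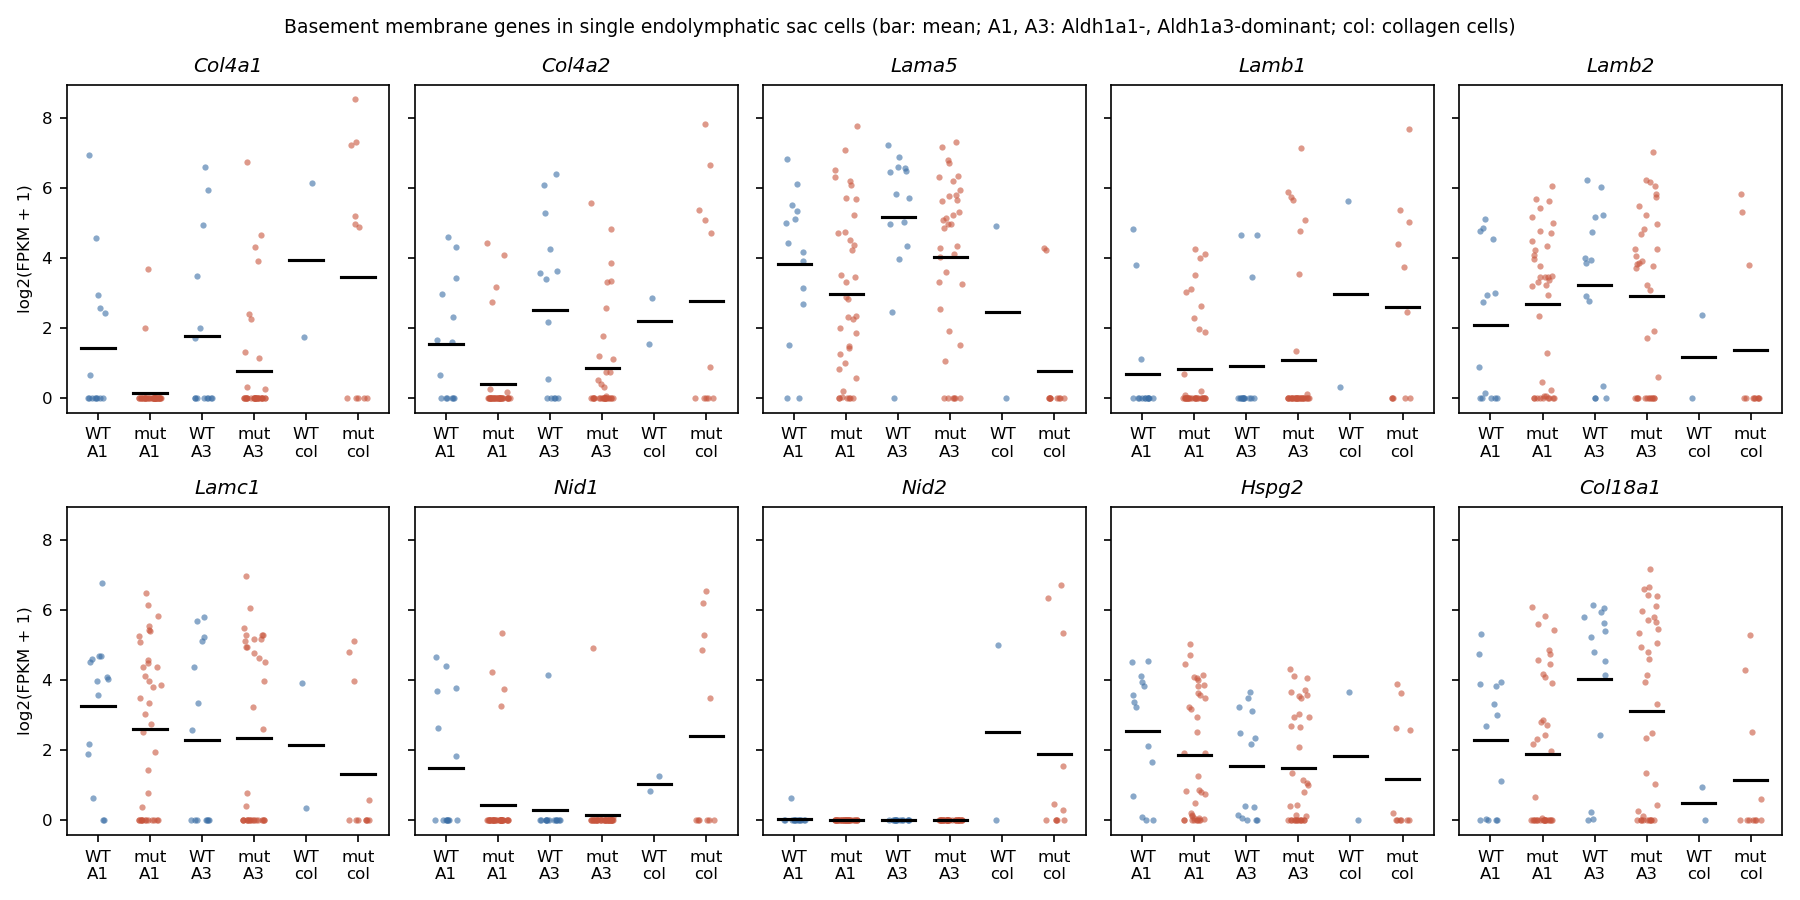
Levels of the 10 genes as log2(FPKM + 1) in each cell, by genotype (WT, wild type; mut, mutant) and class (A1, Aldh1a1-dominant; A3, Aldh1a3-dominant; col, collagen cells). Each point is a cell and the bar is the mean; Lama5 lies high in the dominant classes, while Nid2 lies at or near 0 outside the collagen cells.

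A complete laminin trimer could be put together from the detected chains in 42 of 126 cells, those with Lama5, Lamc1 and at least 1 beta chain. Of these, 40 had Lamb2 and 14 had Lamb1. Lamb2 without Lamb1 was found in 55 cells and Lamb1 without Lamb2 in 16, while 18 cells had both and 37 had neither. These counts describe transcripts detected in the same cell at this depth and not assembled protein.

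Collagen IV of this kind is built from both chains. Col4a1 or Col4a2 was detected in 52 cells and both in 19. Col4a2 was detected in 19 of the 33 cells with Col4a1 and in 19 of the 93 cells without it. In the 19 cells with both, Col4a1 was the higher in 15, with a median Col4a1 to Col4a2 ratio of FPKM of 1.56. On the log2 scale the ratio ran from -2.23 to 4.21, and in the 7 collagen cells with both Col4a1 was the higher each time. Across all 126 cells the Spearman correlation of the pair was 0.51, the highest for Col4a1 among the 9905 genes that at least 10% of cells had at 1 FPKM or more. For comparison, the median over those genes was 0.03 and the 99th percentile 0.30. Within the 102 dominant cells the correlation of the pair was 0.33. The points are cells that differ in class, prefix and depth, so these values are descriptions.

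**Figure D2:**
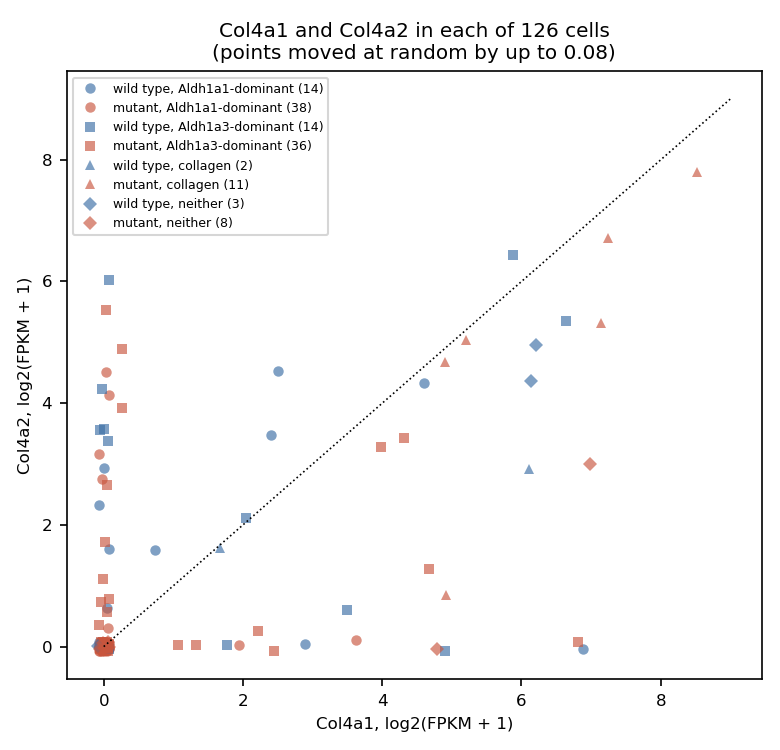
Col4a2 against Col4a1, both as log2(FPKM + 1), in each of 126 cells, with genotype by colour and class by symbol. The dotted line marks equal values; 19 cells have both genes at 1 FPKM or more, and 33 have 1 of the 2 alone.

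By the same measure, the genes most like Col4a1 after Col4a2 were Hnrnpll (0.48), H19 (0.48), Cd302 (0.44) and Tgfb1i1 (0.43). The genes most like Nid1 were Col5a2 (0.52), a fibrillar collagen, then Tgfb1i1 under 2 gene identifiers (0.48 and 0.47), Igf2 (0.42) and Gm26778 (0.41). Lamc1 had weaker neighbours, led by Bzw2 (0.43), Sec24a (0.36), Ift46 (0.35), Cers6 (0.35) and Taf6l (0.35). Among the members themselves, Col4a1 and Nid1 reached 0.38, Lamb1 and Nid1 0.33, and Nid1 and Nid2 0.33. Within the 102 dominant cells, none of which had Nid2 detected, these pairs stood at 0.18, 0.20 and -0.04, in that order. The values over all cells thus also hold differences between classes. The number of members detected in a cell correlated with its listed genes at 0.48, a measure of depth that all these values share.

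The first comparison asked whether the 10 genes differed between mutant and wild-type cells. Collagen IV transcripts were detected in a smaller share of mutant cells. Col4a2 was detected in 19 of 93 mutant cells (20.4%, interval 12.8 to 30.1%) and in 19 of 33 wild-type cells (57.6%, interval 39.2 to 74.5%). Col4a1 was detected in 18 mutant cells (19.4%, interval 11.9 to 28.9%) and in 15 wild-type cells (45.5%, interval 28.1 to 63.6%). For Col4a2 the intervals did not overlap, and for Col4a1 they did by a narrow margin. At least 1 of the pair was detected in 28 of 93 mutant and 24 of 33 wild-type cells.

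The range of values overlapped fully for both genes. Col4a1 ran from 0 over a median of 0 to 121.9 FPKM in wild-type cells, and from 0 over a median of 0 to 370.7 FPKM in mutant cells. Col4a2 ran from 0 over a median of 2.15 to 84.1 FPKM in wild-type cells, and from 0 over a median of 0 to 227.1 FPKM in mutant cells. The highest mutant values of both came from 1 collagen cell. Levels were then compared as mean log2(FPKM + 1), on which scale small values are compressed. Genes entered when at least 25% of the cells of 1 genotype had them at 1 FPKM or more, which 6877 genes did, with a median difference of -0.34, mutant minus wild type. Each difference below is relative to such a median, and a gene was called when it exceeded 1 log2 unit.

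Of the 10 members 8 were frequent enough to compare, and none was called between genotypes over all cells, against a background of 6.28% of genes called lower and 3.64% called higher in mutant cells. Col4a2 came nearest, at a mean of 0.85 ± 1.76 (SD, 93 cells) in mutant and 2.14 ± 2.10 (SD, 33 cells) in wild-type cells, a relative difference of -0.96. Lama5 lay at -0.81, Col4a1 at -0.74 and Col18a1 at -0.61. Lamb1 lay highest of the 8, at 0.35. Under the 10 alternatives run for each gene, Col4a2 passed 1 log2 unit in 7 (down to -1.82). Col4a1 passed it in 2 (down to -1.33), Lama5 in 2 (down to -1.13) and Col18a1 in 1. These counts cover only passes in the direction of the main value. Lamc1, at -0.26, changed sign in some alternative and reached 1.49. The median relative difference was -0.24 over all 10 members and -0.43 over the 8 compared, against 0 for all genes by construction. Nid1 and Nid2, which were not compared, are near 0 FPKM in most cells, and subtracting the negative median of all genes lifts such genes.

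**Figure D3:**
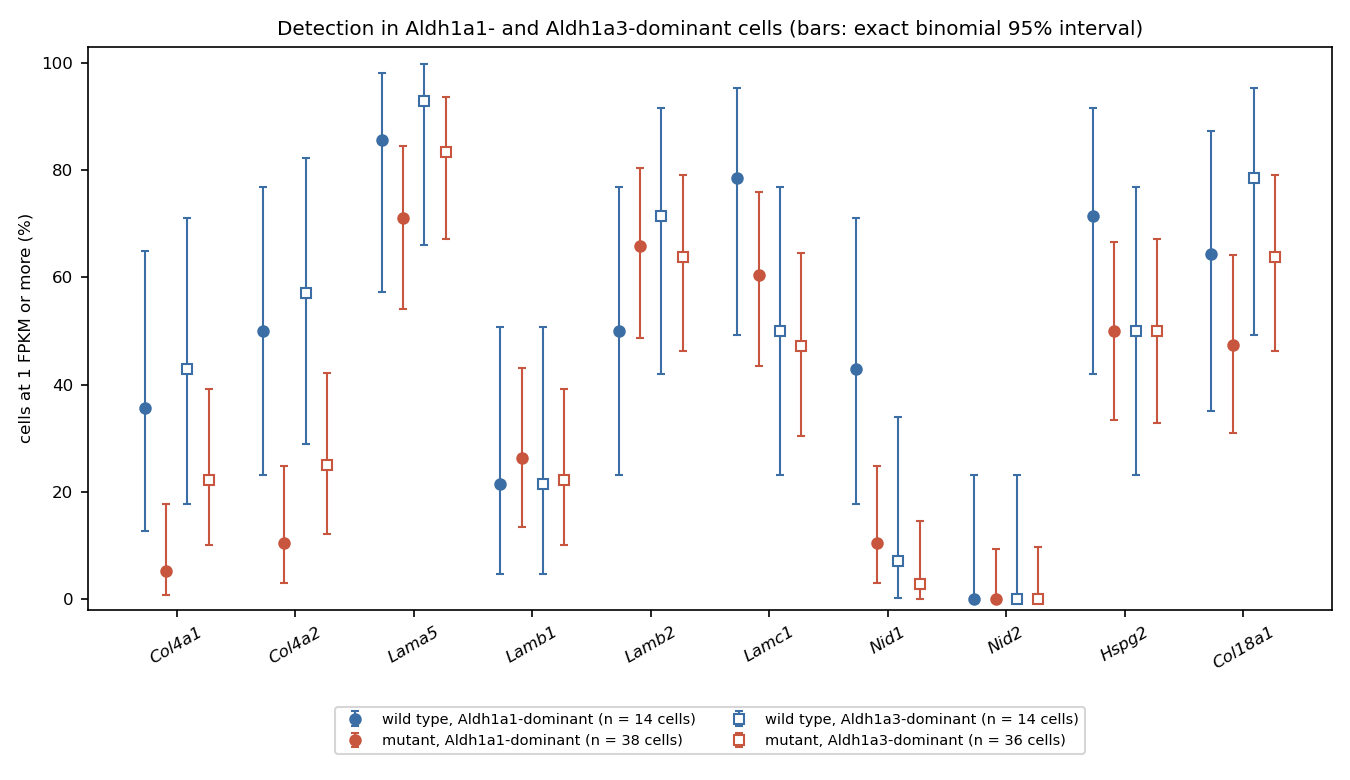
Share of cells at 1 FPKM or more for each gene, in % of cells, in the 2 dominant classes of each genotype, with exact binomial 95% intervals over cells. Col4a1 and Col4a2 were detected in 5.26% and 10.5% of mutant Aldh1a1-dominant cells and in 35.7% and 50% of wild-type ones, while Lamb1 shares lie close together.

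Within Aldh1a1-dominant cells the collagen IV genes were sparse in the mutant. Col4a1 was detected in 2 of 38 mutant cells (5.26%, interval 0.644 to 17.7%), the higher at 11.8 FPKM, and in 5 of 14 wild-type cells (35.7%, interval 12.8 to 64.9%) reaching 121.9 FPKM. Col4a2 was detected in 4 of 38 mutant cells (10.5%, interval 2.94 to 24.8%) and in 7 of 14 wild-type cells (50%, interval 23 to 77%). Nid1 was detected in 4 of 38 and 6 of 14 (42.9%). No mutant Aldh1a1-dominant cell had both collagen IV genes, which sets an upper limit of 7.89%, against 3 of 14 wild-type cells. The intervals overlapped for each gene. One of the 2 mutant cells with Col4a1 was a cell of doubtful label, and 1 of 37 remained without it.

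On the level scale 9 members were compared and none was called within this class, against 8.51% of genes lower and 10.3% higher. Col4a1 lay at -0.93, Col4a2 at -0.79 and Nid1 at -0.71, while Lamb2 lay at 0.96. These values are close to the call, which Col4a1, Col4a2 and Lamb2 each passed in 6 of 10 alternatives and Nid1 in 3. Col4a1, Col4a2 and Nid1 reached the 25% of cells needed for comparison in wild-type cells only. Lamc1 and Col18a1, at -0.32 and -0.04, changed sign in some alternative and reached 1.84 and 1.16. Listed genes differed here too, with medians of 5664 in wild-type and 4694.5 in mutant cells. Restricted to cells with 3000 to 5000 listed genes, Col4a1 and Col4a2 were each detected in 0 of 21 mutant cells, an upper limit of 14.3%, and in 2 of 3 wild-type cells. With 3 wild-type cells this comparison is thin, and the part of depth in the difference was not tested further.

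In Aldh1a3-dominant cells, Col4a2 was called lower in the mutant at -1.35, the 1 member called of 7 compared, against 12.2% of genes called lower and 10.9% called higher. It was detected in 9 of 36 mutant cells (25%, interval 12.1 to 42.2%), where the median was 0 and the highest value 46.8 FPKM. In wild-type cells it was detected in 8 of 14 (57.1%, interval 28.9 to 82.3%), with a median of 6.57 and a highest value of 84.1 FPKM. The values and the intervals overlapped. Between 3000 and 5000 listed genes the relative difference was -1.63, and without cells of doubtful label -1.25. With a pseudocount of 10 it was -0.61, short of 1 log2 unit. Col4a1 was detected in 8 of 36 and 6 of 14 cells at a relative difference of -0.67, which turned to 0.47 between 3000 and 5000 listed genes.

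Of the other members, Lamc1 was detected in 17 of 36 mutant and 7 of 14 wild-type cells, Lamb2 in 23 and 10, Hspg2 in 18 and 7, and Lama5 in 30 and 13. Col18a1 was detected in 23 of 36 and 11 of 14. Relative differences were -0.81 for Lama5, which passed 1 log2 unit in 2 of 10 alternatives, -0.58 for Col18a1 and 0.39 for Lamc1. A complete Lama5 trimer was detected in 13 of 36 mutant and 7 of 14 wild-type Aldh1a3-dominant cells, and in 13 of 38 and 7 of 14 Aldh1a1-dominant cells.

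Enzymes that modify and fold collagen were compared beside the members. Of 17 such genes, 10 were compared over all cells, and 2 were called lower and 1 higher in the mutant. The shares over all genes were 6.28% lower and 3.64% higher. Serpinh1, the collagen chaperone HSP47, was higher at 1.75 over all cells, 2.24 in Aldh1a1-dominant and 1.63 in Aldh1a3-dominant cells. Crtap, part of the prolyl 3-hydroxylase complex, was lower at -1.29 over all cells, -2.04 in Aldh1a1-dominant and -1.25 in Aldh1a3-dominant cells. Ppib, its cyclophilin partner, was detected in 124 of 126 cells and was lower at -1.11 over all cells, but lay at -2.07 in Aldh1a3-dominant and at -0.10 in Aldh1a1-dominant cells. The highest and lowest of the other lists over all cells included Tinagl1 (-1.04), a matrix glycoprotein called lower, and Ctsl (-1.35), a cathepsin called lower. Of 15 receptors 10 were compared and none was called, against the same shares over all genes.

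The second comparison set Aldh1a3-dominant against Aldh1a1-dominant cells within each genotype, where prefix and age were shared apart from the 1 wild-type P9 cell. Depth was not shared, with median listed genes of 5664 in Aldh1a1-dominant and 4848 in Aldh1a3-dominant wild-type cells. The mutant medians were 4694.5 and 4264.5, and the part of depth in the class differences was not tested further. Col18a1 and Lama5 were higher in Aldh1a3-dominant cells of both genotypes. In wild-type cells Col18a1 had a median of 31.8 FPKM (0 to 70.3) in the Aldh1a3-dominant and 6.22 FPKM (0 to 38.7) in the Aldh1a1-dominant class. In mutant cells the medians were 11.8 (0 to 143.9) and 0.306 (0 to 67.6) FPKM. The relative differences were 1.94 in wild-type and 1.42 in mutant cells.

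Lama5 had a median of 53.8 FPKM (0 to 148.1) in wild-type Aldh1a3-dominant and 18.7 FPKM (0 to 114) in Aldh1a1-dominant cells. In mutant cells the medians were 29.4 (0 to 159.5) and 5.11 (0 to 218.4) FPKM. Its relative differences were 1.54 and 1.26. All of these ranges overlapped, so the classes differed in their typical level and not cell by cell. The detection shares of Lama5 differed less, at 13 of 14 against 12 of 14 in wild-type and 30 of 36 against 27 of 38 in mutant cells.

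In wild-type cells 8 members were compared, and 4 were called higher in Aldh1a3-dominant cells, against 16.1% of all genes, and 1 lower, against 15% of genes. The other 2 higher members were Lamb2 at 1.35 and Col4a2 at 1.18, and the lower one was Nid1 at -1.01. Nid1 reached the share of cells needed for comparison in wild-type Aldh1a1-dominant cells only, at 42.9% against 7.14% of Aldh1a3-dominant cells. Its count as lower is therefore a description and no support. In mutant cells 2 of 7 members compared, Col18a1 and Lama5, were called higher, against 8.04% of genes, and none was called lower, against 10.6%. Lamb2 (0.42) and Col4a2 (0.64) lay below the call in mutant cells. Whether the class difference itself differed between genotypes was not tested. Over all 10 members the median relative difference was 0.46 for the wild type and 0.43 for the mutant. Over the members compared the medians were 0.85 and 0.44.

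Nid1 lay the other way. It was detected in 6 of 14 wild-type Aldh1a1-dominant cells (42.9%, interval 17.7 to 71.1%) and in 1 of 14 Aldh1a3-dominant cells (7.14%, interval 0.181 to 33.9%). In mutant cells the counts were 4 of 38 and 1 of 36. Hspg2 and Lamc1 also leaned to the Aldh1a1-dominant class in wild-type cells, at -0.82 and -0.77, and lay at -0.18 and -0.05 in mutant cells. Nid2 was detected in no cell of either class, which sets upper limits of 5.77% for the 52 Aldh1a1-dominant and 6% for the 50 Aldh1a3-dominant cells.

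**Figure D4:**
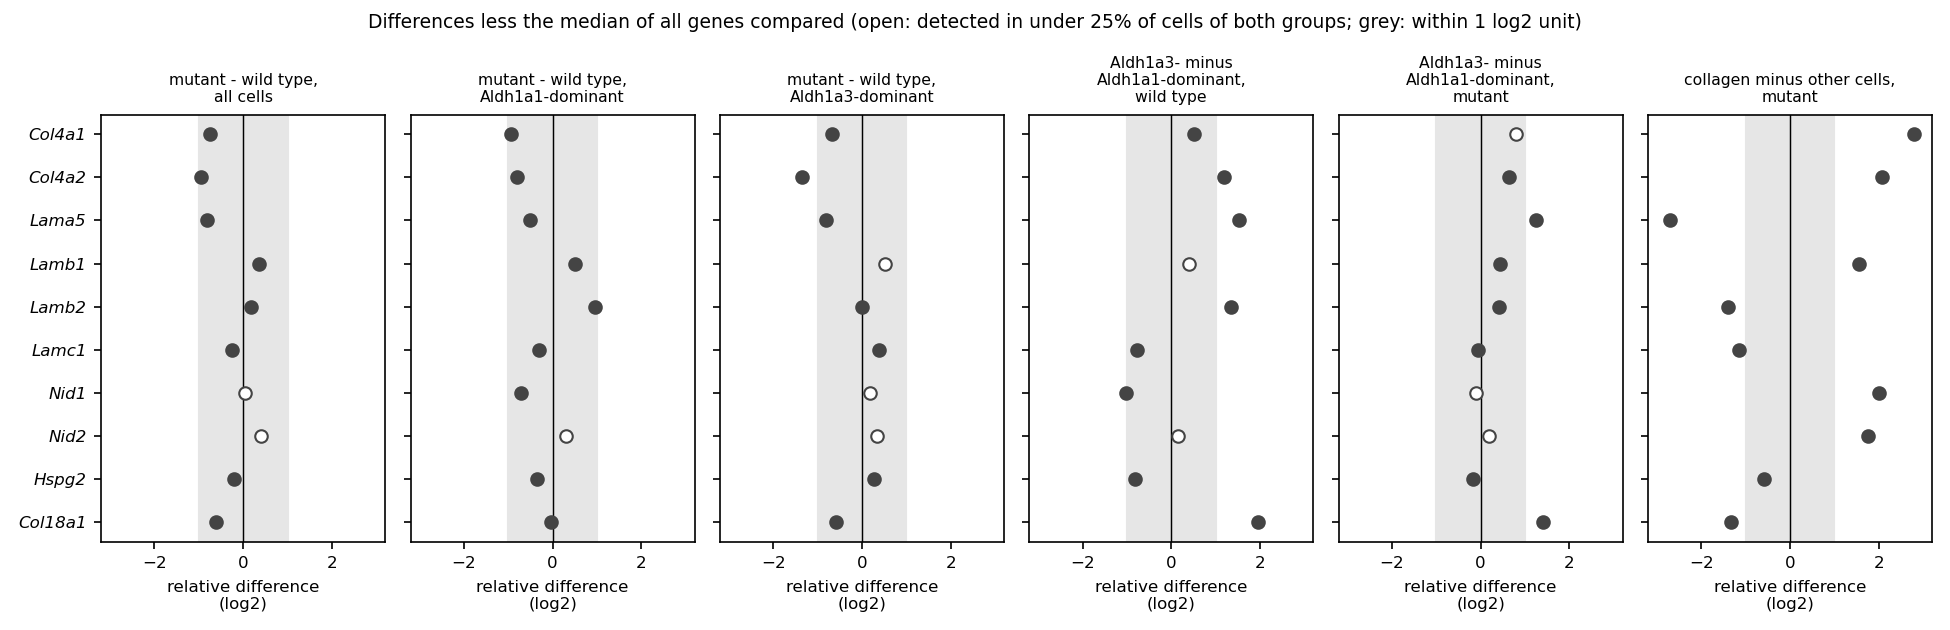
Difference in mean log2(FPKM + 1) of each gene less the median difference of all genes compared, for 6 comparisons, with the first-named group minus the second. Filled points are genes that at least 25% of the cells of either group had at 1 FPKM or more, and grey marks differences within 1 log2 unit; Lama5 and Col18a1 lie right of it in both Aldh comparisons and left of it in collagen cells.

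Other basement membrane genes differed between the classes in both directions. Bmp1, a procollagen proteinase that also cleaves laminin chains, was higher in Aldh1a3-dominant cells at 2.25 in wild-type and 1.53 in mutant cells. Fn1, fibronectin, was higher at 1.41 and 1.48. Plod3, a lysyl hydroxylase and collagen glucosyltransferase, was lower at -2.50 and -1.91, and Sdc1, the proteoglycan syndecan-1, at -2.24 and -1.40. Of the tissue inhibitors of metalloproteinases, Timp2 was higher at 3.07 and Timp3 lower at -2.79 in wild-type cells. In mutant cells Timp3 lay at -0.07, and Timp2, at 0.26, was too seldom detected to compare. Plod1, a lysyl hydroxylase, lay at 2.21 in wild-type and 0.33 in mutant cells. Of all genes compared, 16.1% were called higher and 15% lower in wild-type cells, and 8.04% and 10.6% in mutant cells. Fn1 in either genotype and Bmp1 in wild-type cells reached the share of cells needed for comparison in Aldh1a3-dominant cells only. Sdc1 in either genotype and Timp3 in wild-type cells reached it in Aldh1a1-dominant cells only. Their values are therefore descriptions and no support.

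The third comparison set the 11 mutant collagen cells against the 82 other mutant cells, and the 2 wild-type collagen cells are given by value. The 10 genes, all of which were compared, lay on both sides. Col4a1 was higher at 2.80, Col4a2 at 2.07, Nid1 at 2.0, Nid2 at 1.76 and Lamb1 at 1.55. Lama5 was lower at -2.71, Lamb2 at -1.40, Col18a1 at -1.34 and Lamc1 at -1.15. Hspg2 lay at -0.59. So 5 of 10 members were called higher, against 14.2% of genes, and 4 lower, against 18.5%, and the median of the 10 was 0.48. The 5 higher members reached the 25% of cells needed for comparison in collagen cells only. In other cells their shares ran from 0% for Nid2 to 23.2% for Lamb1. Of the lower members, Lama5 reached the 25% in the other cells only. Both counts are therefore descriptions and no support.

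Nid2, the second nidogen, was detected in 5 of 13 collagen cells (38.5%, interval 13.9 to 68.4%) and in 0 of 113 others, where the upper limit is 2.65%. The highest value in another cell was 0.537 FPKM. In mutant collagen cells Nid2 ran from 0 over a median of 0.212 to 105 FPKM. Nid1 was detected in 6 of 13 collagen and 13 of 113 other cells. Both nidogens were detected in 4 cells, all of them collagen cells.

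Col4a1 was detected in 8 of 13 collagen cells, and in mutant collagen cells ran from 0 over a median of 28.6 to 370.7 FPKM. Col4a2 was detected in 7 of 13 and ran from 0 over a median of 0.861 to 227.1 FPKM in the mutant ones. Lamb1 was detected in 7 of 13, and in 5 of the 11 mutant collagen cells it was the beta chain detected without Lamb2. The high and low values overlapped those of other cells, since several collagen cells lacked each of these genes.

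The collagen cells were not uniform. Epcam, an adhesion protein of epithelial cells, was detected in 3 of the 13 (mutant cells 2 and 92 and wild-type cell 1, numbered within their genotype) at 328.6, 1250.5 and 92.6 FPKM. In these 3 cells Lama5 stood at 18.6, 17.7 and 29.3 FPKM and Lamb2 at 12.9, 55.6 and 4.12 FPKM, while Lamb1, Nid1 and Nid2 were not detected. In the other 10, Lama5 was listed at 0 in each. That allows a share of up to 30% of such cells. Lamb2 was detected in 1 of the 10, Lamb1 in 7, Col4a1 in 7, Nid1 in 6 and Nid2 in 5. Without the 2 mutant cells with Epcam the relative differences were larger, at 3.60 for Col4a1, 2.57 for Nid1 and -3.45 for Lama5. The part of epithelial transcripts in the values of these 3 cells was not tested.

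**Figure D5:**
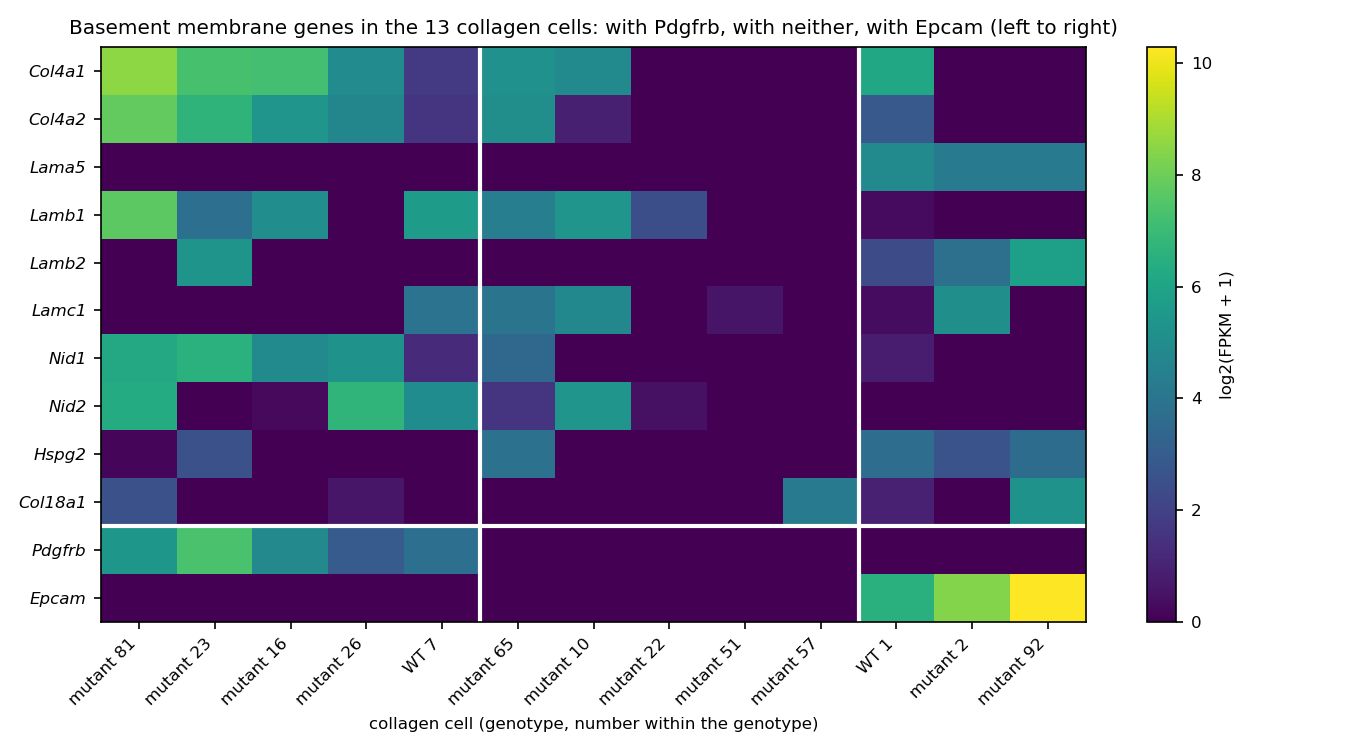
The 10 genes, Pdgfrb and Epcam as log2(FPKM + 1) in each of the 13 collagen cells, grouped from left to right by detection of Pdgfrb, of neither and of Epcam, and sorted by Col4a1 within each group. Lama5 is at 0 in all 10 cells without Epcam, and all 5 cells with Pdgfrb have Col4a1, Col4a2 and Nid1.

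Pdgfrb, a receptor of pericytes and fibroblasts, divided the 10 cells without Epcam further, a split chosen after the values were seen. It was detected in mutant cells 16, 23, 26 and 81 and in wild-type cell 7. Col4a1 stood at 148.3, 157.3, 30.3, 370.7 and 2.32 FPKM in these 5 cells, in that order, and Nid1 at 28.1, 93.8, 38.1, 73.6 and 1.39 FPKM. All 5 thus had both genes, at high values in the 4 mutant cells. Of the 5 cells with neither Epcam nor Pdgfrb, Col4a1 was detected in 2 and Nid1 in 1. Mutant cells 23 and 81 also had Kcnj8, a potassium channel subunit typical of pericytes, at 105.1 and 188.5 FPKM, and its partner Abcc9 at 124.1 and 54.4 FPKM. Rgs5, a further mural marker, stood at 173.3 FPKM in mutant cell 23 but at 3.81 in cell 81 and 4.75 in cell 26. At least 3 of the 6 mural markers looked at were detected in 2 of the 126 cells, mutant cells 23 and 81. Mutant cell 81 held the highest value of the series for Col4a1 (370.7 FPKM), Col4a2 (227.1 FPKM) and Lamb1 (204.2 FPKM), with 2861 listed genes. The part of mural cells in the collagen cell values was not tested.

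Endothelial markers, at least 3 of 7, were found in 2 mutant cells outside the collagen and dominant classes. One had all 7, with Pecam1 at 309.7 FPKM, and had Col4a1 at 119.2, Lamb1 at 45.2, Hspg2 at 22.6 and Col4a2 at 6.69 FPKM. The other had 3 of them, with Pecam1 at 30.3 FPKM, and had Col4a1 at 25.3 FPKM. Its FPKM summed to 60901.7 over 2477 listed genes, against 448063 over 4175 in the first, so the 2 cells are not on one scale. Lama5 was listed at 0 in both. Epcam was undetected in 13 of the 126 cells, and Lama5 was detected in 1 of those 13 and in 90 of the 113 cells with Epcam. Col4a1 showed the opposite split, with 9 of 13 and 24 of 113.

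The rule for collagen cells had 17 cells just outside it, with exactly 1 of the 4 genes at 10 FPKM, and 3 just inside it, with exactly 2. Of the 17, Lama5 was detected in 13, Col4a1 in 5, Nid1 in 5 and Nid2 in none. Of the 3, Lama5 was detected in 2, Lamb2 in 3 and Nid2 in none. With at least 3 of the 4 genes required, leaving 8 mutant cells, Lama5 lay at -3.56, Lamb2 at -2.93, Col4a1 at 3.03 and Nid2 at 2.38.

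The genes that act on these proteins also differed in mutant collagen cells. Of all genes compared, 14.2% were called higher and 18.5% lower in these cells. Of 17 collagen-modifying and cross-linking enzymes, 15 were compared, and 10 were called higher and 1 lower. P3h1, a prolyl 3-hydroxylase, was higher at 2.76 and P4ha1, a prolyl 4-hydroxylase subunit, at 2.68, while Plod3 was lower at -1.21. Of 15 receptors, 11 were compared, with 2 called higher and 5 lower, against the same 14.2% and 18.5% of all genes. Bcam, a receptor for laminins that contain the Lama5 chain, was lower at -5.69 and was detected in 2 of 11 collagen cells and 77 of 82 others. Sdc4 was lower at -3.00, and Ddr2, a receptor for fibrillar collagens, was higher at 3.27. Among 18 other matrix proteins of basement membranes and their surroundings, 10 were compared. Fn1 (4.83) and Tgfbi (4.70) were the highest, and Tinagl1 (-3.92) and Npnt (-1.93), which encodes nephronectin, were the lowest. Among other laminin and collagen IV chains, Col4a5 (1.10) and Lama2 (1.06) were higher and Lamb3 (-1.26) was lower. Mmp2 was part of the rule for these cells and is not counted as a result. Timp3, an inhibitor bound to the matrix, was higher at 1.72. P3h1, P4ha1, Ddr2, Fn1, Tgfbi, Col4a5 and Lama2 reached the 25% of cells needed for comparison in collagen cells only. Bcam reached it in the other cells only. The counts in this paragraph are therefore descriptions and no support.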

How the data were processed

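Single-cell RNA of 126 cells was measured by Smart-seq2. The authors deposited 1 table of FPKM values, genes in rows and cells in columns. Cufflinks, HTSeq, HISAT2, SAMtools 0.1.18 and the build mm10 stand in the submitters' processing notes without roles or order. The release of the annotation and the filters were not given in the sources used here. Because FPKM scale each cell to its own fragments, depth is unknown, and genes above 0 stand in for it.

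Rows sharing an identifier were summed. Members, classes and gene lists were chosen with earlier results of these data known. The level of a gene is its mean log2(FPKM + 1), and the SD is over cells. A comparison used genes that at least 25% of the cells of either group had at 1 FPKM or more, and subtracted their median difference. A gene was called at 1 log2 unit. With 1 sample per genotype no test was run, and no p-value is given. Named genes were all members, the 5 genes most like Col4a1, Lamc1 and Nid1, marker genes, and, in each list, genes among the highest, lowest and most often detected, not all of which are printed. Pdgfrb, Kcnj8 and Abcc9 were singled out after their values were seen. The procedure was tested on simulated data, with groups of 93 and 33 cells and changes planted only in genes above 0 in most cells. That setting does not cover the seldom detected members or the smaller groups. Alternatives changed the pseudocount, scaling, filter, depth range, doubtful labels, averaging and class rules. Python 3.11.15, pandas 2.3.3, numpy 2.4.6 and scipy 1.17.1 were used.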

Additional observations from a re-analysis of the deposited data

How the results depend on the processing

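Relative differences under the alternatives were judged against the SD over cells, and detection shares against their exact binomial interval. These limits are wide, so staying within them says little about stability. The median relative difference of the 10 genes, the detection of Col4a1 with Col4a2 and that of the Lama5 trimer stayed within their limits. Of the values other than these medians, relative differences and detection shares together, 697 stayed within their limits and 41 did not. All 17 differences past 1 log2 unit kept their sign in every alternative run, and 42 of all 60 did. Only 4 of the 17 stayed past 1 log2 unit throughout: Col18a1 between classes in wild-type cells, and Col4a1, Col4a2 and Lama5 in collagen cells. The other 13 fell short with a pseudocount of 10, which shrinks differences by construction, and 6 of them under another alternative too. Sizes fell, among others, to 0.42 for Lama5 and 0.71 for Col18a1 between mutant classes, -0.33 for Nid1 and 0.57 for Col4a2 between wild-type classes, and -0.46 for Lamc1 and -0.47 for Lamb2 in collagen cells. Of the 43 differences below the call, 21 passed it, without a change of sign, in some alternative. Others passed it with a change of sign. Between genotypes Lamc1 did so over all cells (up to 1.49) and in Aldh1a1-dominant cells (up to 1.84). Col18a1 did so in Aldh1a1-dominant cells (up to 1.16). The median itself changed sign in 3 cases. Between 3000 and 5000 listed genes it was 0.38 in place of -0.33 between genotypes in Aldh1a1-dominant cells (21 against 3 cells), and -0.15 in place of 0.48 in collagen cells (7 against 54). With no filter on low values it was -0.21 in place of 0.09 between genotypes in Aldh1a3-dominant cells, where the 7 members compared had -0.58 and Nid2, at 0 FPKM in all such cells, got 0.33 from the subtraction alone. The cause was not tested. No paired analysis was possible because each genotype was 1 sample and no label ties cells of one genotype to cells of the other. Col4a1 between Aldh1a3- and Aldh1a1-dominant wild-type cells turned from 0.52 to -3.32 in the narrow range, with 8 against 3 cells. Leaving out the collagen cells with Epcam, and the collagen cells together with those of neither class, was chosen after seeing the data.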

Other observations

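Of 16 cells with Foxi1, a transcription factor of the mitochondria-rich cells of this sac, Lama5 was detected in 12, Lamb2 and Lamc1 in 10 each and Lamb1 in 6. Col18a1 was detected in 5 of them, Hspg2 and Col4a1 in 3 each, Nid1 in 2, Col4a2 in 1 and Nid2 in none. Mutant-labelled cells in which a Y-linked gene was found, 4 in all, had 0, 4, 8 and 6 of the 10 members. The wild-type cell whose title begins with P9 had 2, Col4a2 at 10.8 FPKM and Col18a1 at 41.8 FPKM.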
